A study of Drosophila melanogaster with 2 samples.

Results

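The motor neuron transcription factor genes described here are 8 genes whose products pattern the nerve cord or specify motor neurons in the fly embryo: Lim3, tup, exex, HGTX, vnd, Oli, eve and zfh1. They were chosen by name, with earlier results of these data known. Every ranked peak with its summit inside the annotated gene or within 5 kb of either end was taken as a peak at that gene. This gave 236 ranked peaks of the 142438 found in both libraries together, at 8 of the 13968 protein-coding genes on the chromosome arms. The study mapped where Lim3 sat on chromatin of whole Drosophila melanogaster embryos aged 8 to 24 h. It holds 1 group with 2 biological replicates, and the design has no comparison between conditions. All embryos came from transgenic flies of the strain Lim3-GFP, whose construct is an insertion directed at Lim3. The fusion of Lim3 to eGFP was precipitated with an anti-GFP antibody after sonication, and the labels enter Lim3 under antibody. The sex of the embryos was not collected, and no library without the fusion or without the antibody was analysed here. Chromatin came from whole embryos, so a peak held by many cells at a low level and one held by few cells at a high level cannot be told apart.

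Lim3 encodes a LIM-homeodomain protein that acts with tup, the fly Islet protein, in ventrally projecting motor neurons. The products of exex (the HB9 homolog), HGTX (the Nkx6 homolog) and Oli (a basic helix-loop-helix protein of the Olig family) also act in motor neurons that project to ventral muscles. The homeodomain protein eve directs motor axons to dorsal muscles, zfh1 encodes a zinc finger homeodomain protein needed for motor axon exit, and vnd, the Nkx2 homolog, patterns the ventral neuroectoderm. Several of these factors restrain or support one another's expression, and together they are described as a combinatorial code.

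Peaks were read from the authors' lists. In each ranked list, rank 1 is the peak with the highest signal, the authors' value of enrichment, whose scale is not stated in the labels or files. The irreproducible discovery rate (IDR) measures how poorly the rank of a peak repeats between the data sets compared, and a higher −log10 IDR means a peak that repeated better. A peak is called listed here where it overlapped by at least 1 bp the larger thresholded list of both libraries, which holds 1500 peaks with a −log10 IDR of 2 or more, the limit of an IDR of 0.01. The authors also deposited a conservative list of 966 peaks and lists of 881 peaks for replicate 1 and 927 peaks for replicate 2. Ranked peaks numbered 104680 in replicate 1 and 113860 in replicate 2. Read depth is unknown, and the ranked lists extend to very weak peaks, so a ranked peak on its own is no call of binding.

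The 200 bp around the summits of the leading peaks are shown because these are the sites on which the results at each gene rest. They are the 2 strongest peaks in the introns of Lim3, the listed peak before its start, the listed peaks of tup, exex and Oli, and the peak of zfh1 just outside the limit. Letters come from the plus strand of the RefSeq release 6 genome, the assembly of the deposited coordinates, with coordinates counted from 1. Capitals mark matches on either strand to any of 8 words. The word TAATTA is a core homeodomain word, and so is its close relative TAATTG. The word CAAGTG is the core of sites of Nkx2 proteins. Sites of basic helix-loop-helix proteins include CAGCTG and also CATATG, while CAGGTG is an E-box that zinc finger proteins such as zfh1 bind. The word GAGAG is read by GAGA factor, and the word ACAGTG was included for its share in strong peaks of these data.
Lim3 rank 279, chr2L:19098863-19099062: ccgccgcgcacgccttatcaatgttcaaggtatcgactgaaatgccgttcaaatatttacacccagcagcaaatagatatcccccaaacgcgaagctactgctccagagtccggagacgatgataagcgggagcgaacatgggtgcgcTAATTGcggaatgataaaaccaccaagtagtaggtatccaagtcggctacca
Lim3 rank 714, chr2L:19096526-19096725: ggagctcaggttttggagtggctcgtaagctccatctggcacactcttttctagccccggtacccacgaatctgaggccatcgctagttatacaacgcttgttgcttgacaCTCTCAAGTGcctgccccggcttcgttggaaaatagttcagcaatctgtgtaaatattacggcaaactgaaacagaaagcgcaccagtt
Lim3 rank 1573, chr2L:19108579-19108778: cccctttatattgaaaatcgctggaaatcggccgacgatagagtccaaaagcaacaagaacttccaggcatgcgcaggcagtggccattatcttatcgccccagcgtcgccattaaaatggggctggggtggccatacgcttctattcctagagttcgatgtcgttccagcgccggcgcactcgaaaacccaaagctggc
tup rank 1601, chr2L:18857725-18857924: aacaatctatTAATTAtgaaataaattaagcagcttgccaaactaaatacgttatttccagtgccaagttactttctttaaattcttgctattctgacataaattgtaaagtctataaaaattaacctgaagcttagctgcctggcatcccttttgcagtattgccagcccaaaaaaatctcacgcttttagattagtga
exex rank 1004, chr3L:7955148-7955347: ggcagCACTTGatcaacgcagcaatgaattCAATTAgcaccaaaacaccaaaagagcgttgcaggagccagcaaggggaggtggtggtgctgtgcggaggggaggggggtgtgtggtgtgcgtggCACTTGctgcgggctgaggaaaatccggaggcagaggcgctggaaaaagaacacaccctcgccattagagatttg
Oli rank 1444, chr2L:17588464-17588663: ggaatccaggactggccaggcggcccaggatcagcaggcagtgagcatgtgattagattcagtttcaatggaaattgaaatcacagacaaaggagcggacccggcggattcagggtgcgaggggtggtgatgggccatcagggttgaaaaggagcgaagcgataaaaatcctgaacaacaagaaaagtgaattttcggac
zfh1 rank 1605, chr3R:30781644-30781843: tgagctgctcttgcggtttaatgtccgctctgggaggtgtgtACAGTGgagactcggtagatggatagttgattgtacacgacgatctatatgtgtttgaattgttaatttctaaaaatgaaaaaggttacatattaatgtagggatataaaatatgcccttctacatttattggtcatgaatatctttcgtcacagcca

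Lim3 rank 279 held TAATTG with its first base 48 bp after the summit, and Lim3 rank 714 held CAAGTG and, next to it, the reverse strand of GAGAG. The windows of Lim3 rank 1573 and Oli rank 1444 held none of the 8 words. Of the listed peaks at the 8 genes, the tup peak alone held TAATTA, starting 90 bp before its summit in a window with a GC content of 32.5%. The exex window held CAAGTG at 2 places and TAATTG at 1, each on the reverse strand, and the zfh1 window held ACAGTG 58 bp before the summit. A match is a description of letters and does not show a bound site.

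Of the 236 ranked peaks at the 8 genes, 12 were listed, or 5.08%, against 1.12% of all ranked peaks. These 12 peaks merged into 9 separate regions and fell at 4 genes: Lim3 had 9, and tup, exex and Oli had 1 each. HGTX, vnd, eve and zfh1 had none. Without Lim3 the share was 3 of 194, or 1.55%. By gene, 4 of 8 had a listed peak, against 20.9% of all protein-coding genes with a ranked peak and 22.5% of the 9433 such genes with 13 to 50 ranked peaks, the range of the 8 genes. At a looser limit, an IDR up to 0.05, 21 of the 236 peaks passed (8.9%), against 1.96% of all ranked peaks. Lim3 held 17 of these among its 42 ranked peaks (40.5%), and the other 7 genes held 4 among 194 (2.06%), 1 each at tup, exex, Oli and zfh1. The share of peaks past either limit at the other 7 genes was therefore near that of the whole series. Lim3 lay in a 110 kb stretch in which signal was raised across many neighbouring genes, and its counts were not separated from that local level.

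**Figure D1:**
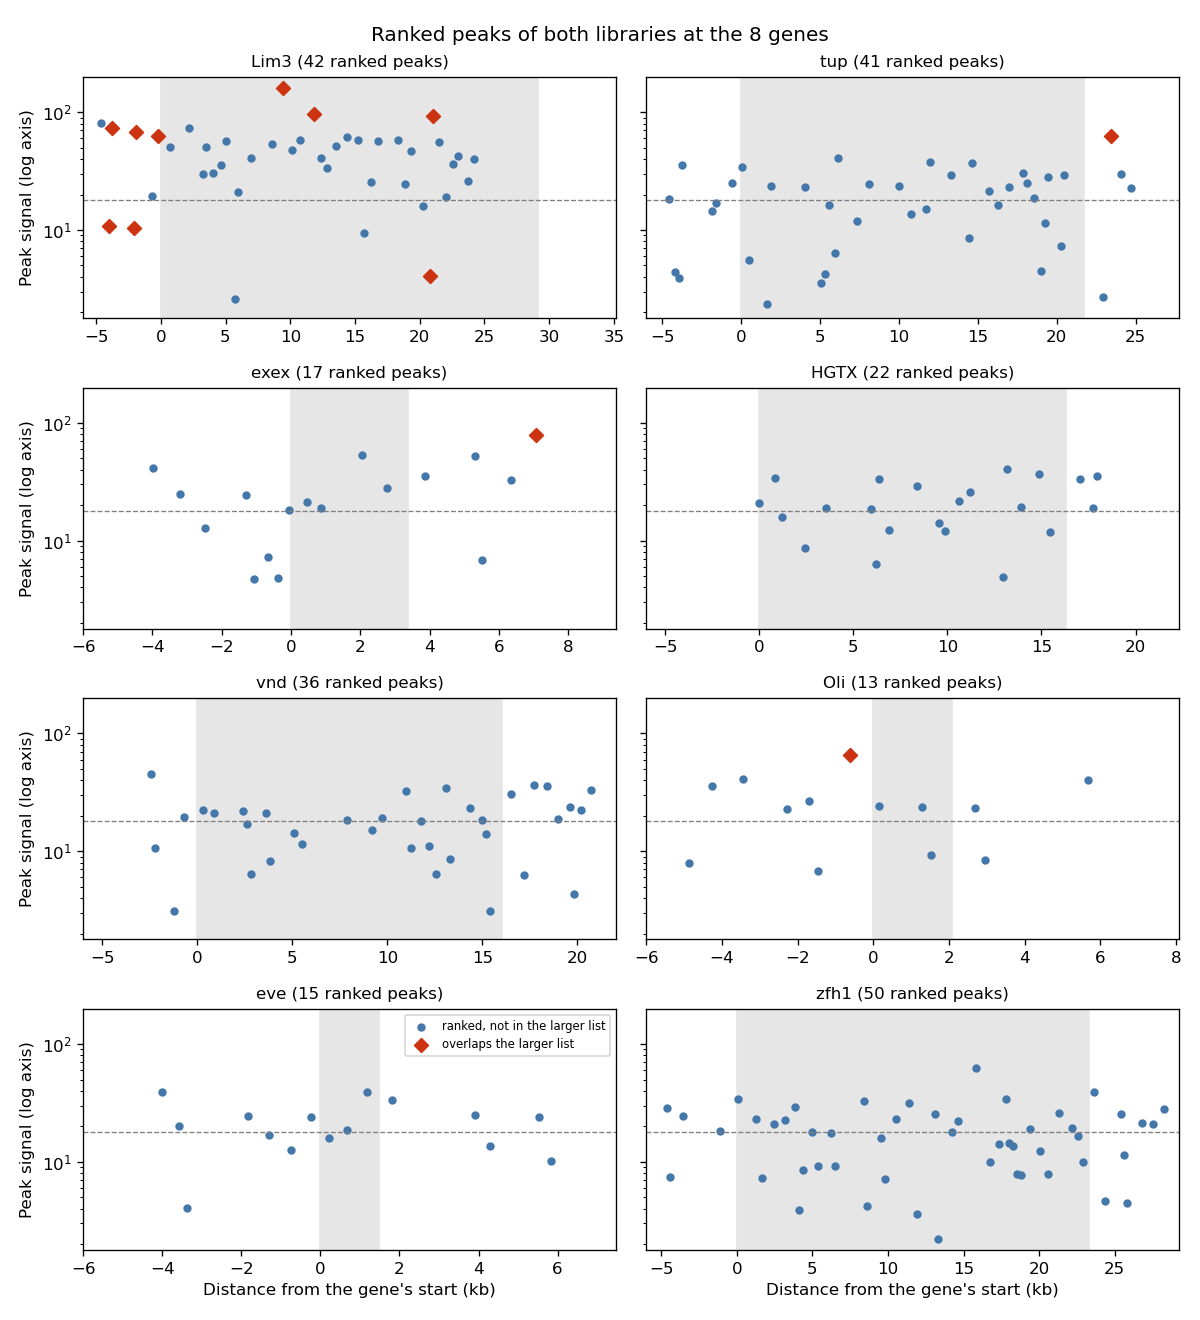
Signal of each ranked peak of both libraries (log axis, arbitrary units of the authors' list) against its distance in kb from the start of the gene, positive in the direction of transcription, for each of the 8 genes. Grey marks the gene, red diamonds are peaks that overlap the larger thresholded list, blue points are the other ranked peaks, and the dashed line is the median of all ranked peaks (17.98). Most Lim3 points lie above that line, and the other genes scatter around it.

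The plot of signal along the genes shows the same contrast across whole distributions. At Lim3, 36 of 42 ranked peaks lay above the series median of 17.98, and their own median signal was 44.31. The other medians were 18.57 at tup, 24.29 at exex, 19.06 at HGTX, 18.45 at vnd, 23.92 at Oli, 19.99 at eve and 17.78 at zfh1. Protein-coding genes with a like number of ranked peaks had a median of 18.48. In each replicate the matched peaks of Lim3 also had the highest median of the 8, 25.44 in replicate 1 and 29.66 in replicate 2. The order of the other 7 genes differed between the replicates. After Lim3 came eve (16.81) in replicate 1 and exex (25.05) in replicate 2, and the lowest was zfh1 (11.50) in replicate 1 and vnd (11.55) in replicate 2.

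The conservative list and the lists of single replicates overlapped fewer of these peaks than the larger list did, as in the whole series. The conservative list overlapped 7 of the 236 peaks (2.97%, against 0.712% of all ranked peaks), 6 at Lim3 and 1 at exex. The list of replicate 1 overlapped 4 peaks (1.69%, against 0.655% of all), and all 4 lay at Lim3. The list of replicate 2 overlapped 7 peaks (2.97%, against 0.666%), 5 at Lim3 and 2 at exex. By gene, replicate 1 listed 1 of the 8 genes, against 14.6% of genes with a like number of ranked peaks. Replicate 2 listed 2 of the 8, against 15.2% of such genes. No peak at the 8 genes overlapped both replicates' lists, against 0.338% of all ranked peaks. In the series, 480 of the 1589 listed ranked peaks (30.2%) overlapped both, and 8 of the 12 listed peaks at the 8 genes overlapped neither.

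Lim3 (FBgn0002023) lies on the minus strand at chr2L:19079256-19108427. Its strongest peak, at chr2L:19098798-19099127, lay in an intron 9464 bp after the annotated gene start and ranked 279 with a signal of 159.83 and a −log10 IDR of 3.918. In replicate 1 the overlapping peak ranked 6688 with a signal of 23.4, and in replicate 2 it ranked 116 with a signal of 124. The strength of this peak thus came from replicate 2, and it was in that replicate's list and not in the conservative one. The coding gene with the nearest start was CG43731, nested in Lim3.

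The next intronic peaks of Lim3 were more even between the libraries. The peak at chr2L:19096461-19096790 ranked 714 with a signal of 96.20, and its matches ranked 1167 in replicate 1 and 766 in replicate 2. The peak at chr2L:19087226-19087555 ranked 773 with a signal of 92.52, and its matches ranked 1163 in replicate 1 and 739 in replicate 2. Both were in the conservative list. A weak neighbour of the second, at rank 135224, counted as listed only because it overlapped the listed row. Replicate 1 had its own best Lim3 peak elsewhere in the introns, at chr2L:19095836-19096135, where it ranked 693 with a signal of 54.03 and was not in that replicate's thresholded list.

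Around the start of Lim3, the peak at chr2L:19108514-19108843 lay 252 bp upstream of the gene and ranked 1573 with a signal of 63.23 and a −log10 IDR of 2.056. It ranked 4778 in replicate 1 and 2811 in replicate 2. A stronger peak at chr2L:19106122-19106451, 12 bp upstream of a start inside the gene, ranked 1193 with a signal of 72.75 but had a −log10 IDR of 1.993, just under the limit, and it was in the conservative list. These sites were close to the limit of the larger list, on either side of it. A further site at a Lim3 start, chr2L:19107582-19107911, was weaker, with rank 3058, a signal of 50.29 and a −log10 IDR of 1.525.

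The other 4 listed peaks in the Lim3 window lay upstream, at amd, a neighbouring gene on the plus strand that encodes an enzyme related to dopa decarboxylase. One pair overlapped at chr2L:19112003-19112566, with ranks 1180 and 106514 and signals of 73.16 and 10.81, and was in the conservative list. The other pair overlapped at chr2L:19110174-19110703, with ranks 1349 and 108094 and signals of 68.10 and 10.48. The members of each pair shared their overlapping replicate peaks, so they are not independent. The summits of ranks 1180 and 1349 lay 327 and 185 bp after amd starts, and the window rule, not a measure of regulation, placed them with Lim3.

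The lists of single replicates pointed to further Lim3 sites. Replicate 1 listed the sites of ranks 1720 and 1920 of both libraries, 14349 and 15261 bp into the gene, and those of ranks 2923 and 24739, 3489 and 3244 bp into it. The last 2 match the same replicate 1 peak, and none of the 4 was in the larger list. Replicate 2 listed the site of rank 981, in the coding sequence of amd, where the signal of both libraries was 80.38 and the −log10 IDR 1.278. It also listed the site of rank 7919, 24218 bp into Lim3. The strongest ranked peak of replicate 2 over that site ranked only 17401, with a signal of 19.99 and a −log10 IDR of 0.069. Replicate 1 had no ranked peak there. No Lim3 site was in both replicates' lists.

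The other 3 listed genes had 1 peak each, and none of these lay inside the gene. The tup gene (FBgn0003896), the fly Islet gene, lies on the minus strand at chr2L:18859507-18881261. Its listed peak at chr2L:18857660-18857989 lay 1682 bp beyond the 3′ end of tup and 146 bp upstream of CG10602, the neighbour with the nearest start. It ranked 1601 with a signal of 62.63 and a −log10 IDR of 2.189, with matches at rank 3618 in replicate 1 and 2393 in replicate 2, the best tup peak of each replicate. Inside the gene 30 ranked peaks lay, and the strongest, an intronic peak 6140 bp after the start, ranked 7641 with a signal of 40.54. A listed peak with tup as the gene of the nearest start, at rank 2020, lay outside the window.

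The exex gene (FBgn0041156) lies on the plus strand at chr3L:7948186-7951563. Its listed peak at chr3L:7955083-7955412 was intergenic, 3685 bp beyond the gene end, and ranked 1004 with a signal of 79.47 and a −log10 IDR of 2.456. It ranked 2044 in replicate 1 and 1004 in replicate 2, and was in the conservative list and that of replicate 2. In replicate 2 a peak 3995 bp upstream of exex, at chr3L:7944041-7944340, was stronger, with rank 855 and a signal of 47.34, and was listed there. In both libraries that upstream site ranked only 7246 with a signal of 41.04, and replicate 1 had no peak over it. Replicate 1 had 3 ranked peaks at exex and replicate 2 had 14, so the exex sites rested mainly on replicate 2.

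Oli (FBgn0032651), a short gene on the plus strand at chr2L:17589184-17591267, had its listed peak 620 bp upstream, at chr2L:17588399-17588728, at the promoter of lncRNA:CR44411. It ranked 1444 with a signal of 65.75 and a −log10 IDR of 2.168. Its match ranked 5523 in replicate 1 and was the best Oli peak in replicate 2, at rank 1290. In replicate 1 the best peak of the window lay at Sytalpha, a neighbour, at chr2L:17594708-17595007 and rank 3224, and replicate 2 had no peak over it. The listed Oli peak was thus strong in replicate 2 and modest in replicate 1.

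In zfh1 (FBgn0004606, chr3R:30765926-30789202, plus strand) the best peak fell just outside the limit, with a −log10 IDR of 1.933. It lay at chr3R:30781579-30781908, 15818 bp into the gene, in an intron that also holds an exon of asRNA:CR45189. Its rank was 1605 with a signal of 62.55. The replicates matched closely there, at rank 1956 with a signal of 31.90 in replicate 1 and rank 1944 with a signal of 34.60 in replicate 2, and in each it was the best zfh1 peak. The site is therefore nearly level with the listed tup peak at rank 1601, which the limit put on the other side. All other zfh1 peaks were weaker, the next ranking 8823 with a signal of 39.19, and zfh1 had the most ranked peaks of the 8 genes, 50.

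The remaining 3 genes had no ranked peak that passed the IDR limit of 0.05. The vnd gene (FBgn0261930, chrX:582121-598151, plus strand) had its best peak 2411 bp upstream, at chrX:579545-579874, with rank 4559, a signal of 45.53 and a −log10 IDR of 1.293. The best vnd peaks of the single replicates lay instead past the 3′ end of vnd, at rank 11659 in replicate 1 and rank 2471 in replicate 2. Both were in introns of spdi, an annotated gene that also overlaps much of vnd. No vnd site was thus among the leading peaks of both libraries.

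HGTX (FBgn0040318, chr3L:14583222-14599540, minus strand) had its best peak in an intron, at chr3L:14586219-14586548, with rank 7582 and a signal of 40.61. Its match ranked 24034 in replicate 1, where it was the best HGTX peak, and 10348 in replicate 2. Replicate 2 had a stronger peak 1069 bp upstream of HGTX, at chr3L:14600459-14600758, with rank 1230, a signal of 40.69 and a −log10 IDR of 1.878. The ranked peaks of both libraries used here held none over that site, and 22 lay in the window in all, 0.84 per kb and the sparsest of the 8 genes.

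The eve gene (FBgn0000606), on the plus strand of chromosome arm 2R from 9979319 to 9980795, had the weakest best peak of the 8. This peak lay 4008 bp upstream and ranked 8691 with a signal of 39.33, 20870 in replicate 1 and 17055 in replicate 2. A peak in the coding sequence ranked 8930 with a signal of 39.08. The best peaks of the replicates differed from it and from each other, at rank 3846 in replicate 1, 3909 bp after the start, and rank 10523 in replicate 2, 1842 bp before it.

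Ordered by their best peak, the 8 genes ran from Lim3 at rank 279 through exex (1004), Oli (1444), tup (1601), zfh1 (1605), vnd (4559) and HGTX (7582) to eve (8691). The ranks of exex, Oli, tup and zfh1 changed places between the replicates: zfh1 led these 4 in replicate 1 (1956) and exex led them in replicate 2 (855). Their order among themselves is therefore within the difference between the replicates, whereas Lim3 came first in both, at 693 and 116. The median best rank of the 8 genes was 1603, or 1.13% of the list, against 5012, or 3.52%, for protein-coding genes with 13 to 50 ranked peaks. In replicate 1 alone the 8 genes had a median of 3.27%, against 5.64% for the same comparable genes, and in replicate 2 alone 1.42%, against 4.15%. Inside the gene spans it was 5.34%, against 14.6% for the 8989 of these comparable genes with a peak there. The comparable genes were chosen by peaks in the 5 kb window, not by gene length or peaks inside the span. The gene-span values are therefore not matched for length. Genes with more ranked peaks have more chances of a good one, so each gene was also set beside genes with 0.8 to 1.25 times its number. A best rank at least as good was held by 7.03% of such genes for Lim3, 15.7% for exex, 17.8% for Oli, 32.3% for tup, 38.7% for zfh1, 64.4% for eve, 64.9% for vnd and 66.5% for HGTX. By this measure vnd, HGTX and eve stood below the middle of comparable genes.

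**Figure D2:**
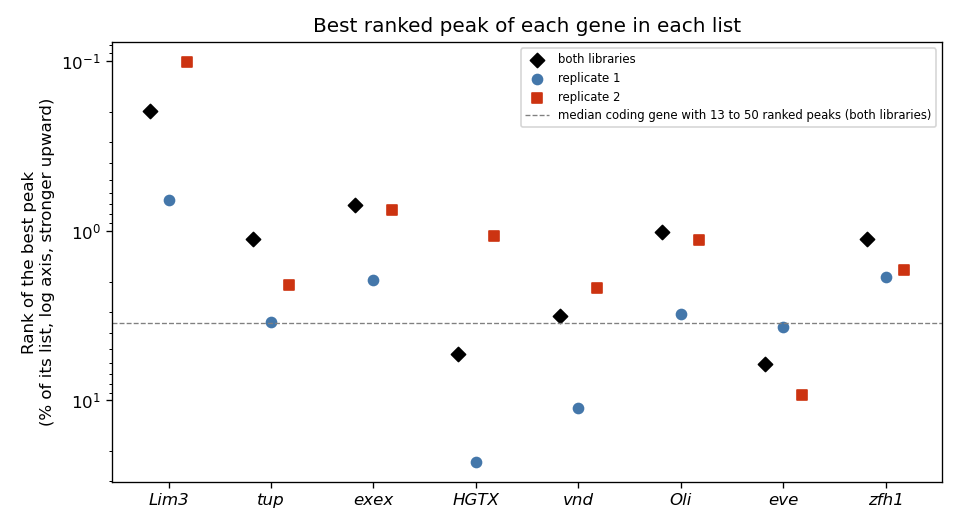
Rank of the best peak of each of the 8 genes as a percent of its ranked list (log axis, stronger upward) in both libraries together (black), replicate 1 (blue) and replicate 2 (red). The dashed line is the median of protein-coding genes with 13 to 50 ranked peaks in both libraries (3.52%). Lim3 is strongest in each list, exex, Oli, tup and zfh1 lie well above the line in both libraries together, vnd lies just above it (3.2%), and HGTX and eve lie below it.

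Of the 236 ranked peaks, 148 (62.7%) had an overlapping peak in both replicates, against 47.4% of all ranked peaks. Only replicate 1 matched 24, only replicate 2 matched 50, and neither matched 14. At Lim3 34 of 42 (81.0%) were matched in both, and at the other 7 genes 114 of 194 (58.8%). Signals of the matched peaks had a Spearman correlation of 0.442 between the replicates over 148 peaks, against 0.176 over 67586 peaks of the series. This rested on Lim3: it was 0.132 over the 114 matched peaks of the other 7 genes, and 0.168 over the 34 at Lim3 alone. The points share libraries and regions, and some share a replicate peak, so these values describe the lists.

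**Figure D3:**
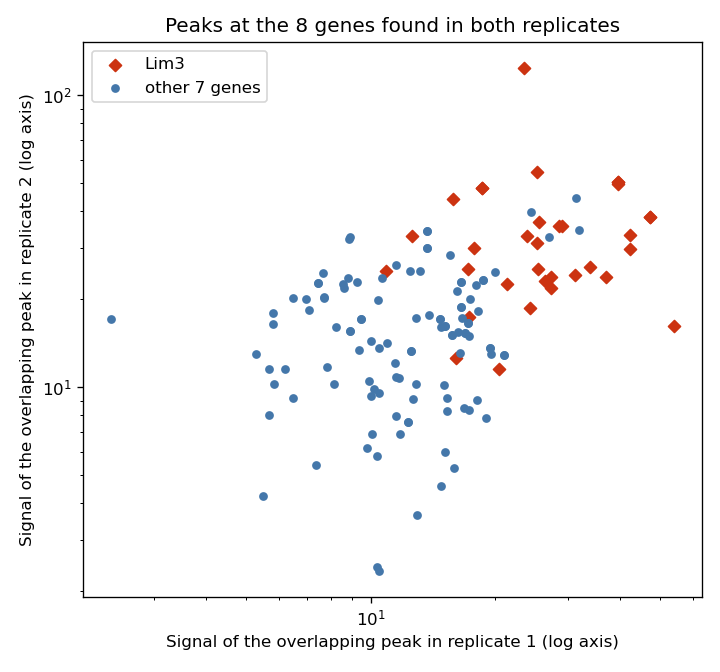
Signal of the overlapping peak in replicate 2 against that in replicate 1 (both log axes, units of each replicate's list) for the 148 ranked peaks at the 8 genes matched in both replicates. Lim3 peaks (red diamonds) lie toward the upper right and the peaks of the other 7 genes (blue) form a round cloud, with Spearman correlations of 0.168 and 0.132 within them.

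Introns held the largest class of the 236 summits (111), followed by intergenic sequence (42), sites within 500 bp of a transcript start (37), coding exons (34), 3′ UTRs (8) and non-coding exons (4). At Lim3 32 of 42 were intronic, and at exex 11 of 17 were intergenic. TAATTA was present within the 200 bp around 22 of the 236 summits, or 9.32% (Wilson 95% interval 6.24 to 13.7%), against 9.94% of all ranked peaks on the arms. It was found in 1 of the 12 listed windows at the 8 genes, against 19.5% of all listed windows. By gene, TAATTA was present in 3 of 42 windows at Lim3, 5 of 41 at tup, 1 of 17 at exex, 1 of 22 at HGTX, 2 of 36 at vnd, 2 of 13 at Oli, 1 of 15 at eve and 7 of 50 at zfh1. TAATTG, which shares its first 5 letters, was present in 14.0% of the windows at the 8 genes, against 15.6% of all. CAAGTG was present in 11.9% against 14.3%, CAGCTG in 9.75% against 10.7%, CATATG in 4.24% against 4.93%, CAGGTG in 8.47% against 9.97%, and ACAGTG in 8.05% against 8.16%. GAGAG was the only word of the 8 with a higher share at these genes, 27.1% against 23.1%, and its interval of 21.8 to 33.1% contained the series value. ACAGTG was in none of the 12 listed windows, against 21.6% of all listed windows, and the 12 windows are few and partly overlap. The intervals cover the counting of windows alone.

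The high signal at Lim3 was not limited to Lim3. In tiles of 10 kb, the median signal of ranked peaks of both libraries exceeded the 90th percentile of all tiles, 24.45, without a break over 110 kb. This ran from 31.6 kb before to 78.4 kb after the Lim3 start, at chr2L:19030001-19140000. Neither replicate alone was unbroken against its own 90th percentile. Replicate 2 fell to 14.257 and 12.903 at the upstream end, below 16.23, and replicate 1 fell to 14.752 in a tile past the 3′ end of Lim3, below 15.28. The 140 ranked peaks of this stretch had a median signal of 35.92, against 18.01 in the flanking 100 kb on each side, a ratio of 1.99. The ratio was 2.14 in replicate 1 (21.73 against 10.17) and 1.7 in replicate 2 (21.78 against 12.79). With the Lim3 window left out, the stretch still held 98 peaks with a median of 32.72. The stretch was outlined after these values had been seen, so its edges and ratio are a description.

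**Figure D4:**
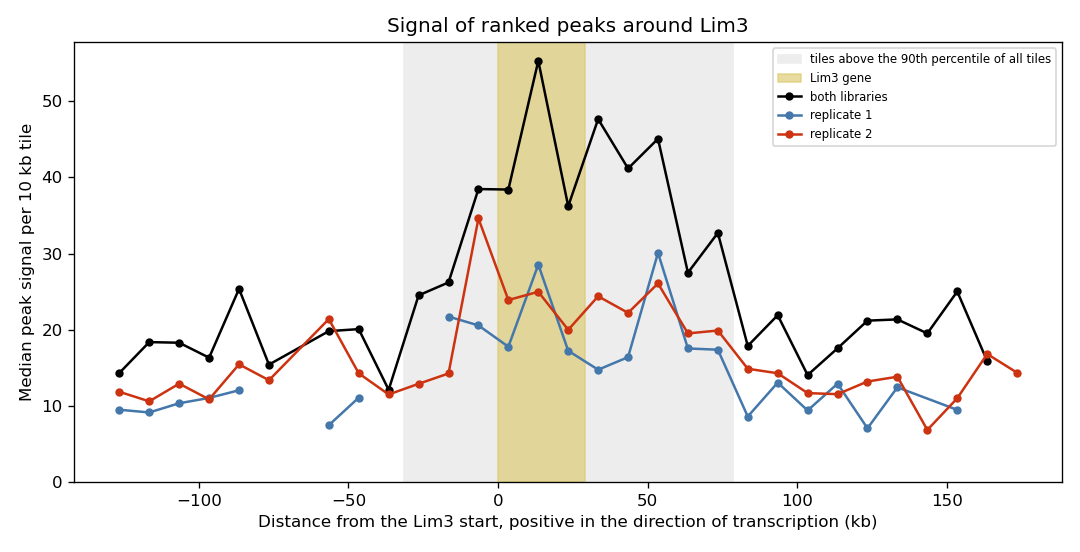
Median signal of ranked peaks per 10 kb tile (units of each list) against distance from the Lim3 start in kb, positive in the direction of transcription, in both libraries (black), replicate 1 (blue) and replicate 2 (red), for tiles with at least 3 peaks. The light band is the 110 kb stretch and the darker band the Lim3 gene. All 3 lines are raised over most of the light band, on both sides of Lim3, and are mostly lower outside it. Replicate 2 is near the median of its flanks (12.79) in the last upstream tiles of the band (14.257 and 12.903). Some single tiles outside the band are also high, such as 25.365 in both libraries and 21.399 in replicate 2.

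The plot of tiles around Lim3 shows a plateau that extends past the gene on both sides. Listed peaks numbered 27 of 140 (19.3%) in the stretch, 9 in the Lim3 window and 18 outside it, where they made up 18.4% of the ranked peaks. Of the 29 protein-coding genes that start in it, 23 had a listed peak in their window, and 22 of them had one inside the stretch, brat being the exception. These include Ddc, which encodes dopa decarboxylase (7 listed peaks), amd (7), the proteasome subunit gene Rpn3 (8) and l(2)37Bb (9), whose windows overlap and share peaks. The best peak of the stretch, with rank 102 and a signal of 262.43, lay by l(2)37Bb and Rpn3 and not by Lim3. Runs of 90 kb on the arms were taken in steps of 10 kb, so they overlap, and those with few ranked peaks were left out. The median run of the 12716 kept had a median signal of 18.29. Among them the best run over Lim3 had the highest median, 40.18, against 27.99 for the next run apart from it. It was also first in replicate 1 (22.11, against 21.49 for the next, on X) and in replicate 2 (23.85, against 17.12). In replicate 1 the lead over the next run was small.

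A span of 110 kb around each of the other 7 genes gave ratios nearer to 1. The ratio over the flanks was 0.978 at tup, 1.14 at exex, 0.999 at HGTX, 1.14 at vnd, 1.17 at Oli, 1.11 at eve and 0.992 at zfh1. In single replicates these ratios ran from 0.837 to 1.34 in replicate 1 and from 0.836 to 1.14 in replicate 2, with the 1.34 at exex, where replicate 2 gave 0.993. At Lim3, therefore, the count of 9 listed peaks, the best ranks and the match between replicates all sat on a raised local level that neighbours with other functions shared. The strain carries an inserted Lim3-GFP construct, and the number of copies of this stretch in the embryos was not measured, so the part of copy number in the raised signal was not tested. Binding at Lim3 and a raised local level of the libraries cannot be told apart in these lists. Within the stretch, the Lim3 window had a median signal of 44.31 with 21.4% of peaks listed, against 32.72 and 18.4% in the rest of the stretch. A higher median was found in the windows of 6 of the 29 genes. These were Ddc (50.05), CG10561 (50.05), amd (49.75), CG17344 and CG43731 (48.93 each) and CG10492 (44.62). CG17344 and CG43731 are nested in Lim3, and the windows of Ddc, CG10561 and amd overlap that of Lim3. Only the CG10492 window lay apart from it, with a median close to the 44.31 of Lim3.

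Among all protein-coding genes, Lim3 had the most ranked peaks past the IDR limit of 0.05, 17. In listed peaks it stood at 9, behind kirre and sbb with 10 each and level with l(2)37Bb of the same stretch. The kirre window held 482 ranked peaks and the sbb window 112, against the 42 of Lim3.

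Further genes came from a list of 16 that named regulators, cofactors, guidance receptors and transmitter genes, of which Toll was not matched. The list was not limited to genes particular to motor neurons. Of the 15 matched genes, ind had no ranked peak among those used here. A listed peak was present at 7 of the 15 (46.7%), against 20.9% of all protein-coding genes with a ranked peak. The windows of the 15 held from 0 to 179 ranked peaks, and these shares were not matched for the number of ranked peaks. The VAChT window lies within that of ChAT, and counting each peak once, 9 of 781 ranked peaks were listed (1.15%, against 1.12% of the series). Among transcription factors, Poxm, a Pax gene, had its best peak at rank 584 with a signal of 107.46, 410 bp upstream, and grn, a GATA factor gene, had one at rank 1157 with a signal of 73.85 in an intron. The Ssdp gene encodes a partner of the LIM cofactor Chi, and its best peak, at rank 592 with a signal of 106.64, lay at the promoter of the neighbour CG12321. Bx, which encodes a LIM-only protein, had an intronic peak at rank 1428, and Chi itself had a best rank of 22468. The netrin receptor gene unc-5 had peaks at ranks 1155 and 1370.

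The ChAT and VAChT genes, which share a locus and encode the synthesis and vesicle transport of acetylcholine, shared a peak at rank 582 with a signal of 107.94. It ranked 585 in replicate 1 and 609 in replicate 2 and was in all 4 thresholded lists, which no peak at the 8 genes was. The best ranks of Poxm, Ssdp and ChAT were thus better than those of 7 of the 8 factor genes, Lim3 being the exception. VGlut, the other transmitter gene on the list, had no listed peak and a best rank of 3434 with a signal of 48.83.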

How the data were processed

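The deposited files are peak lists of an anti-GFP chromatin immunoprecipitation, in dm6 coordinates per the labels: a ranked and a thresholded list for each of the 2 replicates and 2 such pairs for both libraries together. Each list holds the authors' signal per peak, a score scaled from the IDR up to 1000, and the summit; the deposited ranked lists also hold the −log10 IDR, up to 5. The thresholded lists hold peaks with an IDR of 0.01 or less. The aligner, the peak caller and how signal was scaled were not given in the sources used here. No depth per library is known. All values serve only to rank and describe peaks within 1 list, and their unit is the authors'.

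Ranks were made here from signal, 1 being the strongest. Genes, transcript starts and features came from Ensembl release 115, and sequence from RefSeq release 6; no peak on the arms ended outside the reference. A replicate's value for a peak is that of its overlapping peak with the best signal. Words were searched on both strands of the 200 bp around each summit. Peaks are not replicates and there is 1 group, so no p-value was computed. All 8 genes are named, with their best and listed peaks. Of the further genes, those with a listed peak were to be named, and Chi, VGlut and some neighbours were added after their values were seen. The 8 genes and the further gene list were chosen with earlier results of these data known. Nothing in the labels says whether the replicates came from separate cages, beyond the word biological. The calculations were tested on simulated peaks and ran in Python 3.11.15 with pandas 2.3.3, numpy 2.4.6, scipy 1.17.1 and matplotlib 3.10.9.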

Additional observations from a re-analysis of the deposited data

How the results depend on the processing

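The number of listed peaks at the 8 genes, 12, changed with its definition. It was 21 at an IDR of 0.05, 7 with the conservative list, 4 within the gene spans (0 kb), 19 with 10 kb windows, 6 by nearest transcript start, 4 in the stronger 50% of the larger list and 3 without Lim3. With 1 replicate's list it ranged from 4 to 7. Genes with a listed peak, 4 of 8, fell to 2 with the conservative list, to 1 within the gene spans and to 1 in the stronger 50%, and ranged from 1 to 2 with 1 replicate's list. The median best rank, 1.13% of the list, was 5.34% within the gene spans and ranged from 1.42 to 3.27% by replicate. The number of ranked peaks, 236, was 155 within the gene spans and 336 with 10 kb windows. The TAATTA share was 3.81% in 100 bp windows. The correlation between the replicates was 0.132 without Lim3. The ratio of signal around Lim3 over its flanks stayed between 1.7 and 2.14 under each of the 6 alternatives tried. The alternatives without Lim3, the merged or row-wise counts and those for the ratio were added after the data were seen. Other alternatives, such as 2 kb windows, 300 bp windows and a 50% overlap, moved these values less. The cause of each change was not tested beyond the smaller window or list itself. No paired analysis was possible because the design has 1 group and no comparison between groups. Peak lists without read counts limit what can be said of weak sites, and 2 libraries give no error for a single peak beyond their difference.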
